A study of Homo sapiens with 6 samples.

Results

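The comparison described here sets the highly invasive derivative of the human glioma line U87MG against its non-invasive derivative, across the autosomal genes. Its members are 4 of the series' 6 arrays, chosen by title: U87MGR2 and U87MGR3 (invasive, U87MGR) and U87MGL2 and U87MGL3 (non-invasive, U87MGL). The other 2 arrays hold the parental line U87MG and are given beside the comparison. Each gene was represented by the probe set with the highest mean over the 6 arrays among those carrying 1 gene symbol, which gave 18991 autosomal genes, of which 13998 were bright enough to test.

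U87MG is an established human glioma line, grown here in medium with serum. Both derivatives were obtained from it through 4 rounds of injection into the left striatum of 6-week-old BALB/c nude mice, which lack functional T cells, with tumour cells from the brain returned to culture after a round. RNA came from cultured cells, not from tumours, and no group carried an engineered allele or a drug treatment according to the labels. The labels name U87MGL2, U87MGL3, U87MGR2 and U87MGR3 as cell lines of their own, while their titles number them as biological replicates of a derivative. The spread within a derivative therefore includes any difference between its sublines, and the p-values measure the spread between these arrays.

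Glioma cells invade the brain as single cells that move through a matrix rich in hyaluronan and along vessels and nerve fibre tracts. Invasion draws on adhesion receptors such as integrins and immunoglobulin-type cell surface proteins, on cadherin and catenin contacts tied to the actin cytoskeleton, and on enzymes that crosslink or degrade the extracellular matrix. In glioblastoma, low oxygen and the glycolytic genes it induces, Wnt signalling and developmental transcription factors such as the HOX genes are studied beside these.

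The values were log2 probe set signals, with array medians between 5.29 and 5.35. The 9 tested glioma and mesenchymal markers lay above the array medians on every array, but to different degrees. Vimentin (VIM) read 14.30 to 14.46, NES 7.27 to 9.61, and CHI3L1 8.58 to 13.35 with its highest values in U87MG. The summed signal of this class was 16.12 to 16.5 on the log2 scale. Markers of other cell classes were mixed. Of 12 astrocyte markers with a probe set 8 lay above the floor of 4.73 used for testing, with the gap junction gene GJA1 at 11.73 to 12.91 and GLUL at 8.33 to 10.97 but the filament GFAP at 5.21 to 5.45. Of 11 neuronal markers 8 were above it, with the tubulin TUBB3 at 12.08 to 13.04. Above it were also 6 of 10 oligodendrocyte markers (CNP at 9.70 to 10.05, but MOG at 3.94 to 4.38), 6 of 11 of microglia and macrophages (CSF1R at 7.31 to 7.85, but PTPRC at 3.81 to 4.38) and 11 of 14 of endothelium and pericytes (ENG at 7.91 to 9.08, but CDH5 at 3.49 to 3.84). The 42 spike-in control probe sets split the arrays across the groups. U87MGL2, U87MGL3 and U87MGR2 were alike, U87MGR3 resembled the first U87MG array, and the second U87MG array stood by itself, with distances of 0.88 to 1.41 within these sets and 5.56 to 8.83 between them. The GAPDH probe sets at the 3' and 5' ends of the transcript differed by 0.24 on U87MGR3 and by 0.03 to 0.07 on the other arrays, while those of ACTB differed by 0.25 on U87MGR3, 0.22 to 0.39 on 4 others and -0.01 on the first U87MG array. Because U87MGR2 shares its control pattern with both U87MGL arrays, the difference with U87MGR2 alone is given beside the main one for lists, and for named genes with wide differences that leaving out U87MGR3 moves by over 1.5 times.

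The start-site regions of 6 genes that were lower in U87MGR are shown first, because PXDN, PYCARD and DTNBP1 are among the genes with the firmest differences, and ZNF875, ZNF599 and ZNF562 belong to a group of zinc finger genes on 1 chromosome that lay low together. Each is the 250 bases upstream of the transcription start listed in RefSeq (GRCh38.p14), read 5' to 3' on the gene's strand, with every CG step in capitals; CG reads the same on both strands. Where several starts are listed, the most upstream is given. Of the 20 called genes, 11 had an entry in that table; FBXL16, THY1, HOXB6 and ZNF788P are named only.
PXDN, chr2:1744516-1744765, minus strand: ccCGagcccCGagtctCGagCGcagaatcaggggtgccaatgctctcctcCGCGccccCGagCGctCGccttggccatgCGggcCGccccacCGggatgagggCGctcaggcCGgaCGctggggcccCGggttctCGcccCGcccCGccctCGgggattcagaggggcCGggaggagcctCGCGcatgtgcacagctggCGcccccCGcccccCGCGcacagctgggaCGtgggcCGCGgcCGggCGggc
PYCARD, chr16:31202761-31203010, minus strand: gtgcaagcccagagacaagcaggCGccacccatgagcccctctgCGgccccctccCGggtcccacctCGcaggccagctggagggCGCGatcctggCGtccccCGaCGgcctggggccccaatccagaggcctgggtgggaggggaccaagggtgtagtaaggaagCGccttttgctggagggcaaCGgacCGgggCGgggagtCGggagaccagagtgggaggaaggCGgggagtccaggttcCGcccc
DTNBP1, chr6:15663059-15663308, minus strand: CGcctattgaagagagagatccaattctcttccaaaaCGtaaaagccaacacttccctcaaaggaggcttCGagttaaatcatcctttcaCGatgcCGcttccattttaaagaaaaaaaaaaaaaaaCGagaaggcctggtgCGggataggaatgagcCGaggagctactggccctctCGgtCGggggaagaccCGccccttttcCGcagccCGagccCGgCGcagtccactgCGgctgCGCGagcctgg
ZNF875, chr19:37312587-37312836, plus strand: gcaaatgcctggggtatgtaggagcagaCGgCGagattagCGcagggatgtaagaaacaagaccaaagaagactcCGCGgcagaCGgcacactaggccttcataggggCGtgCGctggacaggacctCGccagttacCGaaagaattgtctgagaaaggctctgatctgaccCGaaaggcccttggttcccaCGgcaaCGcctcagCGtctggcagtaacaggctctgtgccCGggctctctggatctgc
ZNF599, chr19:34773216-34773465, minus strand: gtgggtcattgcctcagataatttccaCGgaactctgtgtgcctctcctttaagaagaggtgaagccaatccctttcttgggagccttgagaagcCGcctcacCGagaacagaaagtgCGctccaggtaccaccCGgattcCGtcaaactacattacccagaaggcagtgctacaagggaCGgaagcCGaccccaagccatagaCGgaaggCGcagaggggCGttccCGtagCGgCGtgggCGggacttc
ZNF562, chr19:9675101-9675350, minus strand: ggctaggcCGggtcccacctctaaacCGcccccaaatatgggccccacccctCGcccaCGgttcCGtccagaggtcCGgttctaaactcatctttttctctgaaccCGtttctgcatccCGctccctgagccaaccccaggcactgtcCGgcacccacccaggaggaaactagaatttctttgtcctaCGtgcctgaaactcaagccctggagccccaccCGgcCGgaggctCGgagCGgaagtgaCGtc

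The PXDN window held 32 CG steps, a number reached by 9.52% of the 35116 windows in the table, against a median of 11. The PYCARD window held 16 (reached by 41.0% of windows) and the DTNBP1 window 18 (36.8%). ZNF875, ZNF599 and ZNF562 held 15 each (reached by 42.9%). These counts describe the sequence only.

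Between U87MGR and U87MGL, 20 autosomal genes (0.143%) passed the test (limma, adjusted p under 0.05): 5 were higher in the invasive derivative, 0.0357% of those tested, and 15 were lower, 0.107%. Here and below, rose and fell describe U87MGR relative to U87MGL and not a change from the parental line. Against U87MG, for example, U87MGR differed by 0.64 for MAP3K7CL and 0.90 for KRT15, both called lower. For MAN1C1, called higher, it differed by -0.62. The higher genes encode an F-box protein, a Golgi mannosidase, a neuronal catenin, an actin regulator and a noncoding RNA. Among the lower ones were the surface glycoprotein THY1, the matrix peroxidase PXDN, the inflammasome adaptor PYCARD, the homeobox gene HOXB6 and zinc finger genes. On all 20, neither U87MGR array overlapped the U87MGL arrays, and the difference with U87MGR2 alone was 0.891 to 1.14 times the full one. Both were favoured by the selection, because a call needs a gap that is wide beside the spread within groups. They therefore do not test the part of the spike-in control pattern in these calls. A fit that blocks on that pattern leaves U87MGR2 alone against U87MGL, so it cannot test the calls on both U87MGR arrays. The U87MG mean lay nearer to U87MGR for 17 of the 20, including all 5 higher genes, and nearer to U87MGL for 3 (DTNBP1, PYCARD and DUSP10), while over all autosomal genes it lay nearer to U87MGR for 53.9%. The number of calls rested on all 4 arrays: without U87MGL2 limma called 0 higher genes (219 at unadjusted p under 0.05) and 1 lower (PXDN), without U87MGL3 5 and 9, without U87MGR2 1 and 4, and without U87MGR3 1 and 1 (FBXL16 and HOXB6).

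**Figure D1:**
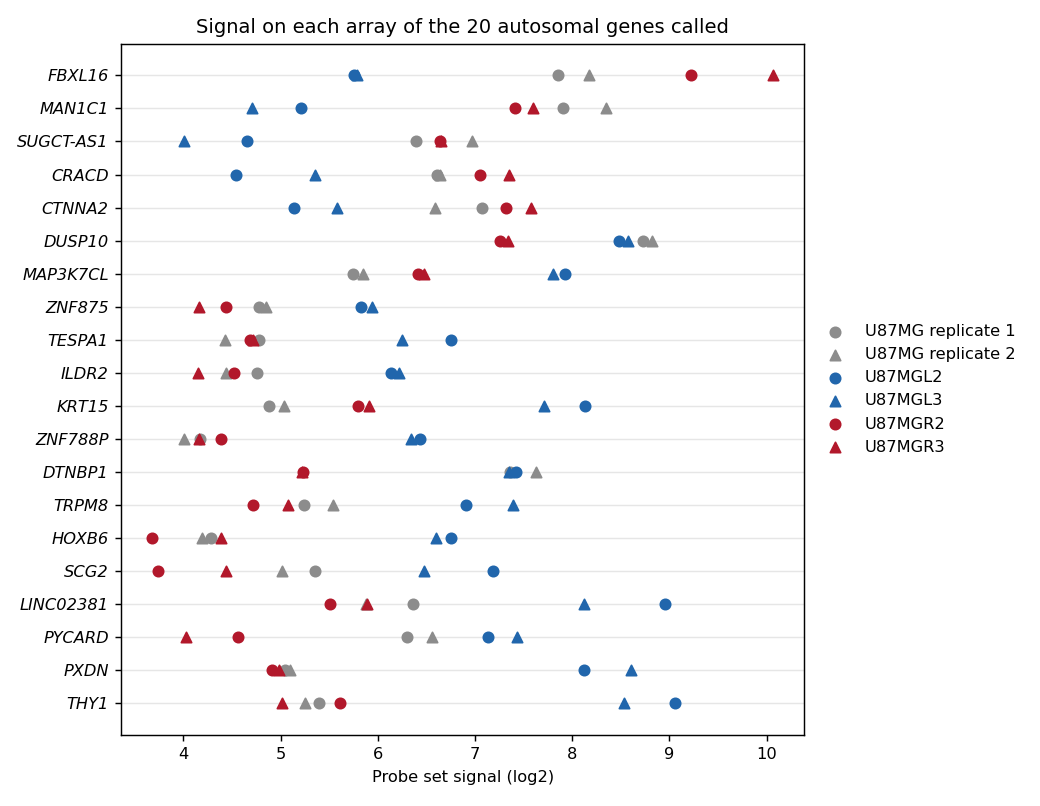
Log2 probe set signal (horizontal axis) on each of the 6 arrays for the 20 autosomal genes called between U87MGR and U87MGL, ordered by difference; grey marks U87MG, blue U87MGL and red U87MGR. Red and blue points do not overlap in any row, and grey points lie with the red ones for most genes but with the blue ones for DTNBP1 and DUSP10.

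The widest difference among the called genes was that of FBXL16 (chromosome 16, probe set 227641_at), an F-box protein of the leucine-rich repeat family, whose members choose substrates for SCF ubiquitin ligases. Its signal was 5.75 on U87MGL2, 5.79 on U87MGL3, 9.22 on U87MGR2 and 10.07 on U87MGR3, and 7.85 and 8.17 on the U87MG arrays. The U87MGL arrays were low and the U87MGR arrays high, with the parental line between. FBXL16 rose 14.7-fold in U87MGR (log2 difference 3.87 ± 0.28, SE; limma adjusted p = 0.0067). Its other probe set lay below the floor on every array, at 4.06 to 4.31, and differed by -0.13. Of the 17 FBXL genes tested, no other passed the test: the next highest were FBXL6 at 0.27 and FBXL18 at 0.26.

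MAN1C1 (chromosome 1, 218918_at) is a Golgi alpha-mannosidase that trims N-linked glycans. It read 5.21 and 4.70 on U87MGL2 and U87MGL3, 7.41 and 7.60 on U87MGR2 and U87MGR3, and 7.91 and 8.35 on U87MG. The invasive and parental arrays were high and the non-invasive arrays low. MAN1C1 rose 5.86-fold (2.55 ± 0.24, limma adjusted p = 0.0142), and its second probe set above the floor differed by 0.98. It was the one called gene of 25 tested in glycan trimming and branching, a list with a median difference of -0.07; GCNT1, a branching enzyme of O-glycans, lay lowest at -0.66 ± 0.30 (-0.32 with U87MGR2 alone).

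CTNNA2 (chromosome 2, 205373_at) is the neuronal alpha-catenin, which ties cadherins to actin. Its signal was 5.14 and 5.58 on U87MGL2 and U87MGL3 against 7.32 and 7.58 on U87MGR2 and U87MGR3, with U87MG at 7.07 and 6.59. All U87MGR and U87MG arrays lay above both U87MGL arrays. The rise was 4.25-fold (2.09 ± 0.23, limma adjusted p = 0.0351). Of the 17 cadherin and catenin genes tested, CTNNA2 was the one called, and 4 lay above and 4 below without overlap, beside 23.5% and 23.0% of all autosomal genes. The neural cadherin CDH18 (0.99 ± 0.27) and the protocadherin PCDH17 (0.83 ± 0.27) were next above, and the giant cadherin FAT1 (-0.64 ± 0.15) lay lowest; none of these passed the test.

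CRACD (chromosome 4, 227230_s_at) inhibits actin capping protein and so favours filament growth. It read 4.54 and 5.35 on U87MGL2 and U87MGL3, 7.05 and 7.35 on U87MGR2 and U87MGR3, and 6.61 and 6.64 on U87MG. The U87MGL arrays were the lowest of the 6. CRACD rose 4.78-fold (2.26 ± 0.27, limma adjusted p = 0.046). It stands with 42 other tested actin and motility genes that were not called, of which the membrane linker ezrin (EZR) lay lowest: 9.53 and 9.39 in U87MGL against 8.49 and 8.03 in U87MGR, a difference of -1.20 ± 0.23. Calponin CNN1 (-1.10 ± 0.29) lay low as well, and myosin light chain MYL9 (1.05 ± 0.32, 0.58 with U87MGR2 alone) and the small GTPase RND3 (0.64 ± 0.16) lay high. The list's median was 0.03.

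The fifth higher gene, SUGCT-AS1 (chromosome 7, 1569403_at), is a noncoding RNA named after its position antisense to SUGCT. Its signal was 4.65 and 4.01 in U87MGL, 6.64 and 6.65 in U87MGR, and 6.39 and 6.97 in U87MG. It rose by 2.32 ± 0.27 on the log2 scale (limma adjusted p = 0.0416), and lies on chromosome 7, whose genes are described with the other chromosomes.

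Of the 15 genes that fell, THY1 (chromosome 11, 208850_s_at) had the widest difference. THY1 is a glycosylphosphatidylinositol-anchored protein of the immunoglobulin superfamily that binds integrins and marks fibroblasts and some neurons. It read 9.06 and 8.53 on U87MGL2 and U87MGL3, 5.61 and 5.01 on U87MGR2 and U87MGR3, and 5.39 and 5.25 on U87MG. Only the U87MGL arrays were high. THY1 fell 11.2-fold (-3.48 ± 0.26, limma adjusted p = 0.0067), and 2 further THY1 probe sets differed by -2.67 and -2.53. THY1 is also in the list of fibroblast and meningeal markers, of which 8 were tested with a median difference of -0.26 (0.04 with U87MGR2, -0.75 with U87MGR3) and a summed log2 level of 13.64 and 13.08 in U87MGL, 13.0 and 12.47 in U87MGR and 13.83 and 13.62 in U87MG; the part of these markers in the result was not tested. The fibroblast protease FAP differed the other way, at 1.5 ± 0.30 (adjusted p = 0.168).

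THY1 was the one called gene among 30 tested integrins and adhesion receptors. Of the 30, 15 lay below and 1 above without overlap, beside 23.0% and 23.5% of all autosomal genes, and the list's median was -0.18 (-0.12 with U87MGR2, -0.28 with U87MGR3). The neural cell adhesion molecule NCAM1 read 7.26 and 6.96 in U87MGL, 5.94 and 4.11 in U87MGR and 7.53 and 6.07 in U87MG. Its U87MGR2 signal lay just under the second U87MG array and U87MGR3 far lower, and its difference of -2.09 ± 0.65 (-1.17 with U87MGR2 alone) did not pass the test (adjusted p = 0.402). CADM1, a synaptic and epithelial adhesion molecule, lay at 9.13 and 8.67 against 7.80 and 7.28 (-1.36 ± 0.24, adjusted p = 0.132). At the upper end were the integrin subunits ITGA10 and ITGB4, each at 0.20, and ITGB3 at 0.18.

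PXDN (chromosome 2, 212012_at), whose start-site region is the CG-rich window above, encodes peroxidasin, a secreted peroxidase that crosslinks collagen IV in basement membranes. Its signal was 8.12 on U87MGL2, 8.61 on U87MGL3, 4.91 on U87MGR2 and 4.98 on U87MGR3, and 5.04 and 5.10 on U87MG. U87MGR and U87MG were at a common low level and U87MGL alone was high. PXDN fell 10.7-fold (-3.42 ± 0.20), with the smallest adjusted p of all (0.00223), and a second probe set differed by -3.46.

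PXDN was the one called gene of 17 that crosslink or process collagen. Of these, 10 lay below and 4 above without overlap, beside 23.0% and 23.5% of all autosomal genes, and the median difference was -0.37 (-0.25 with U87MGR2, -0.65 with U87MGR3). Lysyl oxidase LOX, which crosslinks collagen and elastin, read 12.99 and 12.84 in U87MGL, 12.11 and 10.82 in U87MGR and 11.78 and 10.22 in U87MG. The lysyl hydroxylase PLOD2 read 12.80 and 12.48 against 11.67 and 10.82. Both had their lowest derivative value on U87MGR3, and neither passed the test (LOX -1.45 ± 0.56, or -0.80 with U87MGR2 alone, and PLOD2 -1.40 ± 0.36). Transglutaminase TGM2 lay highest of the list, at 0.76 ± 0.27.

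Among 21 collagen chains none passed the test, and the median difference was -0.20. COL13A1, a transmembrane collagen, read 10.94 and 11.06 in U87MGL, 8.82 and 9.75 in U87MGR and 7.53 and 6.11 in U87MG (-1.72 ± 0.48). The fibrillar chain COL1A1 differed by -1.28 ± 0.34 (-0.81 with U87MGR2 alone) and COL5A1 by -1.16 ± 0.43. At the other end, COL15A1 read 6.42 and 7.61 against 8.90 and 7.61, so that U87MGR3 equalled U87MGL3 (1.24 in all, 1.88 with U87MGR2 alone). Of 36 basement membrane and matrix glycoproteins, 10 lay above and 8 below without overlap, near the 23.5% and 23.0% of all autosomal genes, and none was called. Osteopontin SPP1 (1.17 ± 0.27), thrombospondin THBS2 (1.09 ± 0.17) and laminin LAMA1 (1.08 ± 0.25) were highest, and SPARC (-0.98 ± 0.29, -0.62 with U87MGR2 alone), fibrillin FBN2 (-0.86 ± 0.24) and THBS1 (-0.73 ± 0.16) lowest, so that the thrombospondins THBS1 and THBS2 stood at opposite ends.

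Of 29 metalloproteinases and inhibitors, TIMP3, a matrix-bound inhibitor of metalloproteinases, differed most. It read 10.81 and 10.51 on U87MGL2 and U87MGL3, 7.77 on U87MGR2, 5.98 on U87MGR3, and 11.79 and 10.27 on U87MG. Every U87MGR value lay well under every other array, but the U87MGR arrays also stood 1.27 (SD) apart. The difference was -3.79 ± 0.65, a 13.8-fold lower signal that did not pass the test (limma adjusted p = 0.132), and -2.90 with U87MGR2 alone. Interstitial collagenase MMP1 lay at -0.96 ± 0.42 and ADAM12 at -0.57 ± 0.20 (-0.34 with U87MGR2 alone), while ADAMTS5 (1.10 ± 0.56), the membrane-type enzyme MMP14 (0.84 ± 0.33, 0.28 with U87MGR2 alone) and ADAM22 (0.82 ± 0.32) lay highest, all uncalled.

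PYCARD (chromosome 16, 221666_s_at), or ASC, is the adaptor that joins inflammasome sensors to caspase-1. It read 7.13 and 7.43 in U87MGL, 4.56 and 4.03 in U87MGR, and 6.30 and 6.56 in U87MG. Here the U87MGR arrays were below all the others, the parental line included. PYCARD fell 7.93-fold (-2.99 ± 0.23, limma adjusted p = 0.0067). It was the one called of 16 tested genes of the interleukin-1 family and inflammasome. IL1B, the cytokine that the inflammasome matures, was 9.67 on U87MGL2, 12.91 on U87MGL3, 12.85 on U87MGR2 and 11.41 on U87MGR3, so that its groups overlapped.

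DTNBP1 (chromosome 6, 223445_at) encodes dysbindin, a subunit of the BLOC-1 complex that builds lysosome-related organelles. Its signal was 7.42 and 7.35 in U87MGL, 5.23 and 5.22 in U87MGR, and 7.36 and 7.63 in U87MG. U87MGL matched the parental line and both U87MGR arrays were lower. DTNBP1 fell 4.47-fold (-2.16 ± 0.16, limma adjusted p = 0.0067); its other probe sets above the floor differed by -2.56 and -0.28. The other 18 tested genes of lysosome-related organelle complexes were not called, with HPS5 highest at 0.64 ± 0.21 and the BLOC-1 subunit BLOC1S4 lowest after DTNBP1 at -0.64 ± 0.27 (-0.26 with U87MGR2 alone).

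DUSP10 (chromosome 1, 221563_at), a phosphatase that inactivates stress-activated MAP kinases, showed the same arrangement. It read 8.48 and 8.57 in U87MGL, 7.26 and 7.34 in U87MGR, and 8.73 and 8.82 in U87MG. DUSP10 fell 2.34-fold (-1.23 ± 0.15, limma adjusted p = 0.0471), and a second probe set differed by -0.83. None of the other 33 tested genes of MAP kinase feedback and the immediate early response was called. The immediate early genes FOSB (6.04 on U87MGR2 and 8.66 on U87MGR3) and FOS (7.94 and 10.50) were higher on U87MGR3 than on the other derivative arrays, with 5.99 and 6.07 and 8.53 and 7.70 in U87MGL; FOS read 10.10 and 4.79 on the U87MG arrays. MAP3K7CL (chromosome 21, 221211_s_at), named for its likeness to the C-terminal part of the kinase MAP3K7, read 7.93 and 7.80 in U87MGL, 6.41 and 6.47 in U87MGR and 5.74 and 5.85 in U87MG, a 2.68-fold fall (-1.42 ± 0.15, limma adjusted p = 0.0281).

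SCG2 (chromosome 2, 204035_at), a granin stored in secretory granules, read 7.18 and 6.47 in U87MGL, 3.74 and 4.44 in U87MGR and 5.35 and 5.01 in U87MG. The derivatives thus lay on opposite sides of the parental line. SCG2 fell 6.66-fold (-2.74 ± 0.31, limma adjusted p = 0.0388). Of 22 tested genes of secretory granules and neuroendocrine cells it was the one called, and the list's median was 0.18, above that of all autosomal genes (0.00): 9 lay above and 6 below without overlap, beside 23.5% and 23.0% of all autosomal genes. The granin-like VGF (0.89 ± 0.22), the syntaxin STX1A (0.86 ± 0.27) and the neuronal microtubule protein MAP2 (0.92 ± 0.27) were highest, VGF and STX1A being genes of chromosome 7, and the chaperone SCG5 (-1 ± 0.24, -0.64 with U87MGR2 alone) was next lowest after SCG2.

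TRPM8 (chromosome 2, 243483_at), the cold- and menthol-gated cation channel, read 6.91 and 7.39 in U87MGL, 4.72 and 5.08 in U87MGR and 5.24 and 5.54 in U87MG. It fell 4.78-fold (-2.26 ± 0.23, limma adjusted p = 0.0254), while a second probe set differed by -0.28. KRT15 (chromosome 17, 204734_at), a keratin of basal epithelium, read 8.13 and 7.71 against 5.80 and 5.91, with U87MG lowest at 4.88 and 5.03, and fell 4.18-fold (-2.06 ± 0.19, limma adjusted p = 0.0142). ILDR2 (chromosome 1, 229380_at), an immunoglobulin-like membrane protein, and TESPA1 (chromosome 12, 222920_s_at), an adaptor known from T cell signalling, fell by 1.84 ± 0.20 and 1.80 ± 0.22 on the log2 scale (adjusted p = 0.0281 and 0.0471). ILDR2 read 6.14 and 6.22 in U87MGL against 4.52 and 4.15 in U87MGR, and TESPA1 6.75 and 6.25 against 4.68 and 4.72. For ILDR2 and TESPA1, as for PYCARD, SCG2, HOXB6, ZNF788P and ZNF875, both U87MGR signals were below the floor of 4.73, so that their folds set a measured signal against a dim one. SUGCT-AS1 was below the floor on both U87MGL arrays, and passed the filter through the other groups. HOXB6 and ZNF788P were below it on every array outside U87MGL, and passed the filter through U87MGL alone. For ILDR2, TESPA1, SCG2 and ZNF875, the mean over the arrays outside U87MGL was also under the floor. These genes would not have been tested without their U87MGL signals, so their selection favoured a difference in this direction.

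LINC02381 (chromosome 12, 226582_at), a long noncoding RNA, read 8.96 and 8.12 in U87MGL, 5.51 and 5.89 in U87MGR and 6.36 and 5.88 in U87MG. It fell 7.16-fold (-2.84 ± 0.31, limma adjusted p = 0.0326). HOXB6 (chromosome 17, 205366_s_at), a homeobox transcription factor of the HOXB cluster, read 6.75 and 6.60 in U87MGL, 3.68 and 4.39 in U87MGR and 4.28 and 4.19 in U87MG. Only in U87MGL was HOXB6 above the floor of 4.73. It fell 6.24-fold (-2.64 ± 0.24, limma adjusted p = 0.0142).

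The HOX genes lie in clusters whose members are often expressed together with their neighbours. Of 9 HOXB genes tested, HOXB6 was the one called, and the other 8 differed by -0.06 to 0.24. Its neighbour HOXB5 read 5.93 and 5.96 in U87MGL and 6.00 and 6.19 in U87MGR, and HOXB7 read 5.68 and 5.38 against 5.46 and 5.50. HOXB2 (0.24) and HOXB3 (0.12) read 9.13 and 9.30 against 9.22 and 9.68, and 8.72 and 8.91 against 8.67 and 9.21. HOXB1, HOXB4, HOXB9 and HOXB13 differed by -0.01, 0.05, -0.06 and 0.13, and HOXB8 was below the floor. A second HOXB6 probe set lay below the floor on every array, at 3.58 to 4.24. In the HOXC cluster HOXC6 read 8.25 and 8.35 against 7.95 and 7.68 (-0.49, adjusted p = 0.453), and HOXC4, HOXC5, HOXC8 and HOXC11 differed by -0.25, -0.13, 0.05 and 0.04. In the HOXD cluster HOXD4, HOXD8, HOXD9, HOXD10, HOXD11 and HOXD13 differed by 0.43 (0.25 with U87MGR2 alone), -0.20, 0.02, 0.40, 0.13 and 0.22, with no call. Below the floor were HOXA2, HOXC9, HOXC10, HOXC12, HOXC13, HOXD1 and HOXD12, and HOXD3 and the other HOXA genes had no probe set with 1 symbol.

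The remaining called genes were zinc finger genes of chromosome 19, a chromosome rich in genes for KRAB-type repressors of transcription. ZNF788P (244552_at), listed as a pseudogene by its symbol, read 6.43 and 6.34 in U87MGL, 4.39 and 4.16 in U87MGR and 4.17 and 4.01 in U87MG. It fell 4.32-fold (-2.11 ± 0.16, limma adjusted p = 0.00673). ZNF875 (231836_at) read 5.83 and 5.94 against 4.44 and 4.16, with U87MG at 4.78 and 4.85, and fell 3-fold (-1.59 ± 0.17, limma adjusted p = 0.0281). Its other probe sets, all below the floor, differed by -0.06 and 0.04. Of the 5 genes just outside the threshold, 3 were of the same kind: ZNF776 (8.11 and 7.98 against 6.66 and 6.59, -1.42), ZNF599 (6.77 and 6.57 against 4.88 and 4.80, -1.82) and ZNF544 (6.11 and 6.34 against 4.83 and 5.03, -1.30), at adjusted p of 0.0524 to 0.0586.

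For that reason, and so after the values were seen, all 123 tested genes of chromosome 19 with a ZNF symbol were collected. Of these, 27 had an unadjusted p under 0.05 in the lower direction and 0 in the higher. Over all autosomal genes the shares were 4.83% and 3.90%. The 27 include ZNF788P, ZNF875, ZNF776, ZNF599 and ZNF544, which prompted the collection, so the count is not independent of that choice. Among the 123 genes, 2 were called. A difference above 0 was seen in 34.1% of them and in 50.6% of all autosomal genes, where 49.4% lay below 0. Their median difference was -0.11, and it was similar for each pair of arrays (-0.11 to -0.14). In 13 the difference was -1 or below, the genes that prompted the collection among them, and in 0 was it 1 or above. The other 875 tested genes of chromosome 19 had a median of 0.05, but -0.02 for both pairs with U87MGR2 and 0.09 and 0.10 for those with U87MGR3. The 171 ZNF genes of the other autosomes had a median of 0.04, with 10 lower and 10 higher at unadjusted p. Against U87MG, the chromosome 19 ZNF genes lay at 0.15 and 0.12 on U87MGL2 and U87MGL3 and at 0.03 and -0.04 on U87MGR2 and U87MGR3. These genes resemble each other in sequence, and how far their probe sets share signal was not tested.

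**Figure D2:**
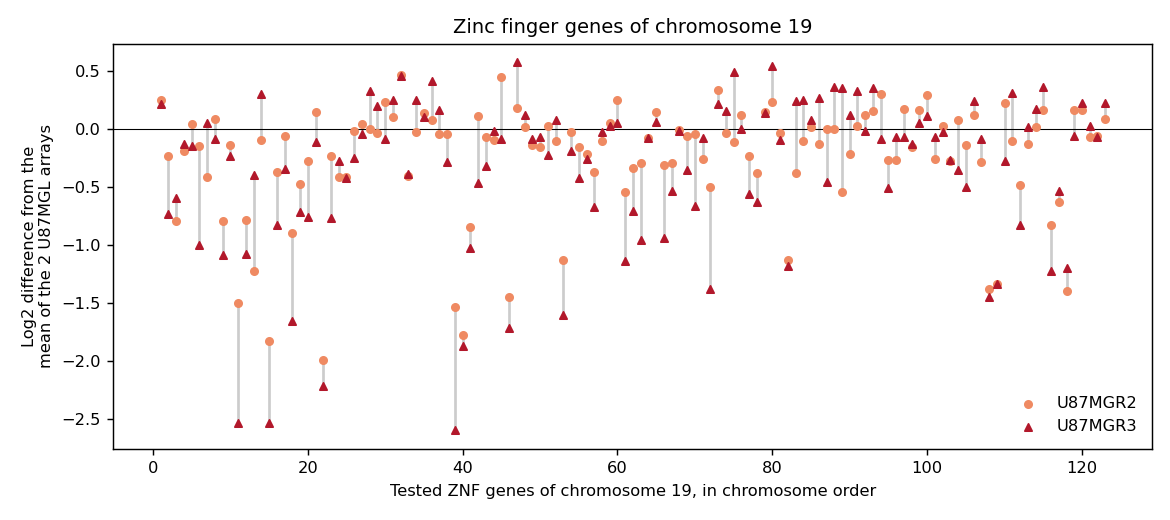
Log2 difference from the mean of the U87MGL arrays (vertical axis) for U87MGR2 (circles) and U87MGR3 (triangles) at each of the 123 tested ZNF genes of chromosome 19, placed in chromosome order (horizontal axis, rank); grey lines join the values of a gene. The 13 genes with a mean difference of -1 or below are spread along the order, among others near 0, and no gene reaches 1 on either array.

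The 24 genes with the widest differences among those not called, 12 on each side, had groups that did not overlap and an unadjusted p under 0.05. A difference of at least 2-fold without overlap was seen in 85 genes above (0.607%) and 182 below (1.3%). U87MGR3 lay further from U87MGL than U87MGR2 did in 11 of the 12 higher and 10 of the 12 lower genes, and in 188 of all 267 genes of this size.

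GPNMB, a glycoprotein of lysosomes and melanosomes studied in glioma, read 9.14 and 7.62 on U87MGL2 and U87MGL3, 11.38 and 12.15 on U87MGR2 and U87MGR3, and 11.69 and 12.96 on U87MG. Its U87MGL arrays were low but unlike each other, and the difference of 3.39 ± 0.58 did not pass (adjusted p = 0.132). PCLO, a scaffold of presynaptic active zones, read 6.68 and 6.47 in U87MGL, 8.87 and 10.47 in U87MGR and 6.44 and 7.61 in U87MG (3.09 ± 0.55); here the U87MGR arrays alone were high. The microtubule-associated kinase DCLK1 (2.25 ± 0.49), the lipase relative PNLIPRP3 (2.19 ± 0.35), the Wnt agonist RSPO3 (1.90 ± 0.39) and the metabolic coactivator PPARGC1A (1.79 ± 0.24) were higher in U87MGR than in U87MGL and highest in U87MG. The sulfotransferase SULT1C2 (2.03 ± 0.58) had U87MG arrays at 6.2 and 8.18, on both sides of the U87MGR arrays at 6.61 and 7.14. The keratin-associated KRTAP1-5 (2.08 ± 0.61), the homeobox gene LHX8 (1.88 ± 0.30) and the proton pump subunit ATP6V0D2 (1.83 ± 0.59) had the U87MG mean between the derivatives. ABLIM1, an actin-binding protein, and TUSC3, an oligosaccharyltransferase subunit, read 5.07 and 6.33 against 7.10 and 7.93 and 5.22 and 5.22 against 6.59 and 7.46, with U87MG near U87MGL.

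On the lower side, HMGN3, a nucleosome-binding protein, read 8.78 and 8.71 in U87MGL, 6.52 and 3.38 in U87MGR and 8.78 and 7.62 in U87MG. The U87MGR arrays were low to very different degrees (-2.22 and -5.36), and the difference of -3.79 ± 0.90 had an adjusted p of 0.242. C11orf96 read 8.09 and 8.43 against 5.12 and 5.23, with U87MG high at 11.35 and 10.04; at -3.08 ± 0.39 its adjusted p of 0.0524 lay just outside the threshold. ENPP5, a membrane phosphodiesterase relative, read 6.79 and 5.64 against 3.34 on both U87MGR arrays (-2.87 ± 0.39, adjusted p = 0.071). The ubiquitin ligase RNF149 (-2.54 ± 0.49, -1.81 with U87MGR2 alone) and ZNF32 (-2.11 ± 0.45, -1.31 with U87MGR2 alone) had U87MG near U87MGL, as had periplakin PPL (-2.32 ± 0.68), whose U87MGL arrays read 9.30 and 6.81. ZNF32 read 7.79 and 7.58 in U87MGL, 6.37 and 4.78 in U87MGR and 7.86 and 7.66 in U87MG. SLFN11, a factor known for sensitizing cells to DNA damage (-2.37 ± 0.56), had its U87MG arrays at 7 and 5.27, the first near U87MGL and the second near U87MGR2 at 5.13. ZNF562 of chromosome 19 (-2.19 ± 0.34), teneurin TENM2 (-2.18 ± 0.47) and the thyroid hormone deiodinase DIO2 (-2.08 ± 0.44) had U87MG near U87MGR. The gene GLB1L2, a galactosidase relative just outside the threshold, read 7.98 and 7.49 against 5.99 and 6.06 (-1.71 ± 0.22, adjusted p = 0.0524).

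Of the 45 pathway lists with 5 or more tested members, 4 had a median difference of -0.2 or below, none had 0.2 or above and 29 lay within 0.1 of 0. Called members were found in 11 lists, 1 in each. Many of the lists were drawn up with earlier results of these arrays known, so the called members are not independent evidence about them.

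**Figure D3:**
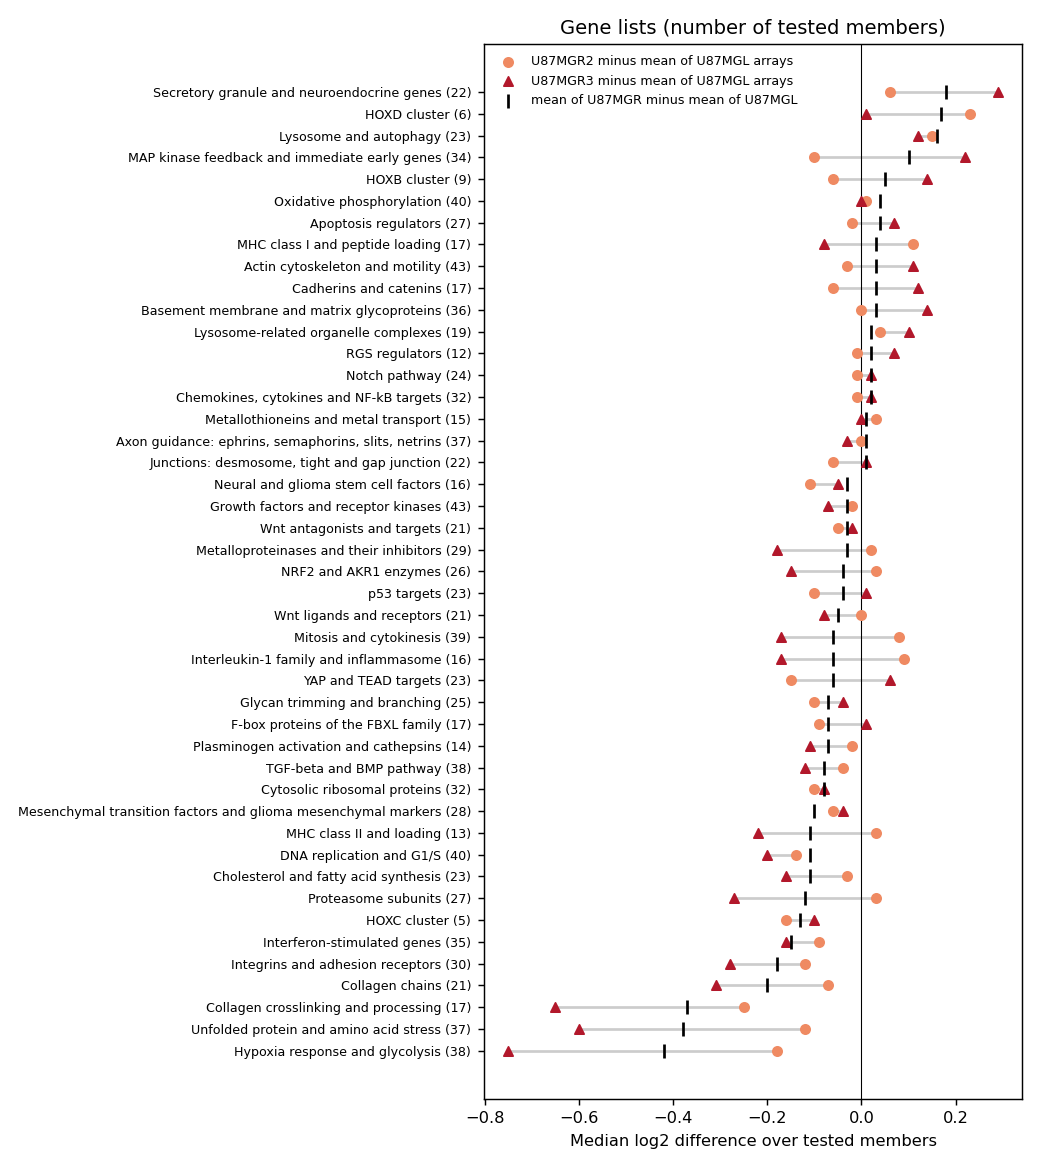
Median log2 difference over the tested members of each gene list (number of tested members in brackets), for U87MGR2 (circles) and U87MGR3 (triangles) against the mean of the U87MGL arrays and for the group means (black ticks). Hypoxia and glycolysis, the unfolded protein response and collagen crosslinking lie lowest, at -0.42, -0.38 and -0.37, and in all 3 the triangle is further from 0 than the circle.

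The list with the lowest median held genes induced by low oxygen and the enzymes of glycolysis. Of 38 tested, 26 lay below and 1 above without overlap, beside 23.0% and 23.5% of all autosomal genes, 9 had an unadjusted p under 0.05 in the lower direction and 1 in the higher, and none was called. The median difference was -0.42. It was -0.18 with U87MGR2 and -0.75 with U87MGR3, and the 3' to 5' difference of GAPDH was also larger on U87MGR3 (0.24), that of ACTB was not (0.25, against 0.28 on U87MGR2); their part in the result was not tested. Against U87MG, the median difference was 0.02 for the mean of U87MGR and 0.40 for that of U87MGL. The U87MGR mean joins unlike arrays, with a median level of 11.48 on U87MGR2 and 10.97 on U87MGR3. On the U87MG arrays this level was 11.65 and 11.14. The U87MG arrays also carry other spike-in control patterns than U87MGL2, U87MGL3 and U87MGR2, and the part of this was not tested.

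The glucose transporter SLC2A1 read 10.43 and 10.18 on U87MGL2 and U87MGL3, 9.42 on U87MGR2, 7.88 on U87MGR3 and 9.26 and 7.77 on U87MG. Both U87MGR values lay below U87MGL, U87MGR3 by much the more (-0.89 and -2.42). DDIT4, a stress-induced inhibitor of mTORC1, read 12.66 and 12.03 against 11.71 and 10.05, and NDRG1, a hypoxia-induced gene, 13.27 and 12.63 against 12.32 and 10.93. Their differences of -1.65 ± 0.59, -1.47 ± 0.53 and -1.32 ± 0.62 had adjusted p of 0.475, 0.477 and 0.606, and with U87MGR2 alone those of DDIT4 and NDRG1 were -0.64 and -0.63. The enzymes at the other end were near 0: hexokinase HK1 at -0.02 and aldolase ALDOA at 0.00, while phosphofructokinase PFKM read 10.37 and 10.70 against 11 and 11.12 (0.52 ± 0.20).

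**Figure D4:**
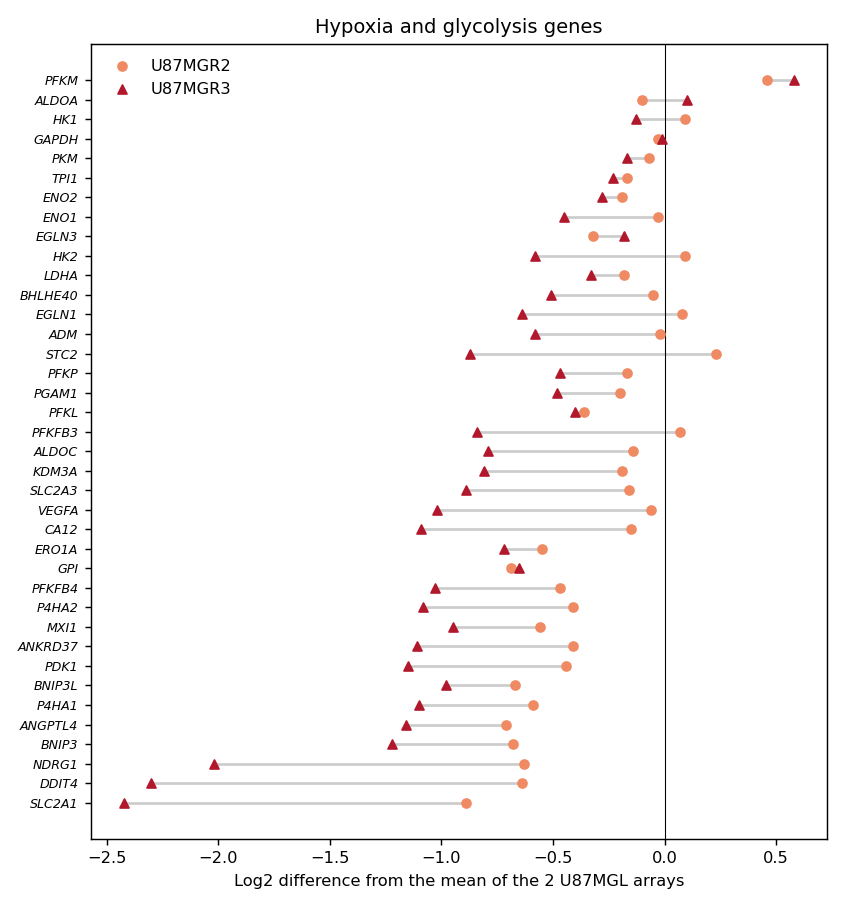
Log2 difference from the mean of the U87MGL arrays (horizontal axis) for each of the 38 tested hypoxia and glycolysis genes on U87MGR2 (circles) and U87MGR3 (triangles), ordered by mean difference. Most triangles lie to the left of the circle of the same gene, with SLC2A1 at -0.89 and -2.42, and PFKM is the only gene to the right of 0 on both arrays.

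Genes of the unfolded protein and amino acid stress responses lay low in the same uneven way. Of 37 tested, 13 lay below and 1 above without overlap, beside 23.0% and 23.5% of all autosomal genes, none was called, and the median was -0.38, with -0.12 for U87MGR2 and -0.60 for U87MGR3. HERPUD1, which works in the disposal of misfolded proteins of the endoplasmic reticulum, read 12.30 and 12.28 in U87MGL, 11.03 and 10.59 in U87MGR and 12.19 and 11.40 in U87MG, and so was lowest on both U87MGR arrays (-1.48 ± 0.28, adjusted p = 0.151). CBS, an enzyme of cysteine synthesis, read 8.51 on U87MGL2 and 6.49 on U87MGL3 against 6.25 and 5.11, and its U87MGL arrays were further apart than the nearest arrays of the groups. VLDLR lay at -1.03 ± 0.45 (-0.48 with U87MGR2 alone), and ATF3 (0.34), GARS1 (0.31) and AARS1 (0.26) lay highest.

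In the Wnt pathway, 21 ligands and receptors were tested, 5 lay above and 8 below without overlap, beside 23.5% and 23.0% of all autosomal genes, and none was called. FZD4, the receptor in the study's title, read 6.87 and 6.63 in U87MGL, 6.96 and 7.07 in U87MGR and 6.95 and 6.45 in U87MG. Both U87MGR arrays were the higher, by less than the gap between the U87MG arrays, and the difference was 0.26 ± 0.21 (limma adjusted p = 0.76). The receptor FZD7 read 6.47 and 7.33 against 5.75 and 3.96 (-2.05 ± 0.60, -1.15 with U87MGR2 alone), the tyrosine kinase-like receptor ROR1 6.91 and 5.70 against 4.47 and 4.95 (-1.60 ± 0.38), and the ligand WNT5B lay at -0.70 ± 0.22. RSPO3, which amplifies Wnt signals, lay highest at 5.70 and 6.26 against 7.56 and 8.20, followed by FZD1 (0.52 ± 0.22, 0.81 with U87MGR2 alone) and WNT6 (0.38 ± 0.28). Of 21 antagonists and targets, 4 had an unadjusted p under 0.05, all lower, beside 4.83% lower and 3.90% higher among all autosomal genes. The secreted inhibitor DKK1 read 9.48 and 9.59 in U87MGL, 7.31 and 8.15 in U87MGR and 6.22 and 6.83 in U87MG (-1.80 ± 0.31, adjusted p = 0.132), and the pseudoreceptor BAMBI (-1.14 ± 0.43) and DKK3 (-0.95 ± 0.33) were next. TNFRSF19, KREMEN1 and SP5 were highest, at 0.59 (1.11 with U87MGR2 alone), 0.45 and 0.35.

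Of 38 genes of the TGF-beta and BMP pathway, 10 lay below and 4 above without overlap, beside 23.0% and 23.5% of all autosomal genes, with a median of -0.08. The BMP antagonist NBL1 (-1.29 ± 0.38), the activin subunit INHBE (-1.08 ± 0.43) and the BMP target ID2 (-0.96 ± 0.31, -0.60 with U87MGR2 alone) were lowest. Of 37 axon guidance genes, 11 lay above and 10 below without overlap, near the 23.5% and 23.0% of all autosomal genes. The ephrin receptor EPHA7 read 4.41 and 4.24 in U87MGL and 6.43 and 5.55 in U87MGR (1.67 ± 0.29), and EPHA5 differed by 0.87 ± 0.27. The semaphorin SEMA4D read 6.5 and 6.06 against 4.95 and 4.86 (-1.37 ± 0.21), and SEMA7A differed by -0.93 ± 0.18. None was called, and EPHA7 had an adjusted p of 0.132 and SEMA4D of 0.115.

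Among 43 growth factors and receptor kinases, IGFBP3, which binds insulin-like growth factors, read 13.28 and 12.82 against 11.85 and 10.13 (-2.06 ± 0.81, -1.20 with U87MGR2 alone). MET, the hepatocyte growth factor receptor on chromosome 7, read 12.16 and 12.18 against 12.70 and 12.55 (0.45 ± 0.18), and the neurotrophin BDNF differed by 0.56 ± 0.22. The median was -0.03, and none was called. In 32 chemokines, cytokines and NF-kB targets the median was 0.02; the receptor IL7R read 9.27 and 9.73 against 7.65 and 7.98 (-1.68 ± 0.22, adjusted p = 0.0586), the scavenging receptor ACKR3 lay at -1.78 ± 0.43 and the monocyte attractant CCL2 at -1.36 ± 0.27. Of 35 interferon-stimulated genes, 11 lay below and 2 above without overlap, beside 23.0% and 23.5% of all autosomal genes, with a median of -0.15, and the antiviral membrane proteins IFITM2 (9.84 and 9.06 against 7.96 and 7.92) and IFITM3 (9.96 and 9.43 against 8.42 and 8.89) were lowest.

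Of 23 genes of the lysosome and of autophagy, 11 lay above and 7 below without overlap, both shares over the 23.5% and 23.0% of all autosomal genes, with a median of 0.16 that was 0.15 on U87MGR2 and 0.12 on U87MGR3. The protease CTSD read 9.41 and 9.04 against 9.75 and 10.19 (0.75 ± 0.22) and the glucuronidase GUSB, on chromosome 7, 9.53 and 9.38 against 9.93 and 9.98 (0.50 ± 0.17); neither was called. The following counts are of genes without overlap, to be read against 23.0% below and 23.5% above over all autosomal genes. For DNA replication and G1/S, 14 of 40 lay below and 1 above, with a median of -0.11; the cyclin CCND2 read 5.28 and 6.98 against 4.12 and 4.60, and the repressor E2F7 lay at 1.06 ± 0.28. Mitotic genes had 8 of 39 on each side and a median of -0.06, and oxidative phosphorylation 8 above and 6 below of 40, with a median of 0.04. Of 32 ribosomal proteins, 23 lay below without overlap, but by little: the median was -0.08 and the lowest, RPS3, read 13.31 and 13.30 against 13.18 and 12.87.

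Along the chromosomes, the genes of chromosome 7 lay higher in U87MGR over most of its length. Of 679 tested there, 377 had both U87MGR arrays above both U87MGL arrays (55.5%, beside 23.5% of all autosomal genes) and 59 below (8.69%, beside 23.0%). The median difference was 0.21, and lay between 0.18 and 0.23 for each of the 4 pairs of arrays. At unadjusted p under 0.05, 141 were higher and 21 lower, so that a chromosome with 4.85% of the tested genes held 25.8% of the higher ones. The single called gene was SUGCT-AS1, and GPNMB, PCLO and SUGCT-AS1 had the widest differences. Against U87MG the chromosome's median was 0.22 on U87MGR2 and 0.27 on U87MGR3, but 0.04 on U87MGL2 and 0.01 on U87MGL3. By this median the invasive arrays stood apart from the parental line and the non-invasive ones did not. In a later stretch both derivatives lay above U87MG. The window from PTN to CUL1 was at 0.20 and 0.12 on U87MGL2 and U87MGL3, and at 0.20 and 0.11 on U87MGR2 and U87MGR3.

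On chromosome 1 the arrays of the other derivative stood apart from the parental line. The 637 genes after its widest stretch without tested genes, on the long arm, had a median difference of 0.18. It ran from 0.10 for U87MGR3 against U87MGL3 to 0.27 for U87MGR2 against U87MGL2, and was 0.13 and 0.23 for the other pairs, so that it was larger against U87MGL2 than against U87MGL3. Of the 637, 285 lay above (44.7%) and 51 below (8.01%) without overlap, beside 23.5% and 23.0% of all autosomal genes, and 71 were higher (11.1%) and 13 lower (2.04%) at unadjusted p, beside 3.90% and 4.83%. The 812 genes before the stretch had a median of 0.01 in all, but the windows nearest to it were higher: that from LINC02790 to CSF1 had a median of 0.16, with 39 of 50 genes above 0, and U87MGL2 and U87MGL3 at -0.24 and -0.13 against U87MG. Against U87MG, these 637 genes lay at -0.22 on U87MGL2 and -0.13 on U87MGL3 and at 0.00 and -0.02 on U87MGR2 and U87MGR3, so that here it was the non-invasive arrays that differed from the parental line. Of the called genes there, ILDR2 and DUSP10 were lower in U87MGR. The widest differences in the higher direction were those of TXNIP, an inhibitor of thioredoxin (6.75 on U87MGL2 but 10.10 on U87MGL3, against 10.64 and 10.21 on the U87MGR arrays), the G-protein regulator RGS4 (6.75 and 7.15 against 8.20 and 9.05) and OLFML2B (7.10 and 6.85 against 8.36 and 7.97), none of them called.

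The other 20 autosomes had medians of -0.05 to 0.06. The highest was that of chromosome 13, where 31.6% of 250 genes lay above and 18.0% below without overlap. Over all autosomal genes these shares were 23.5% and 23.0%. Its highest window, from GPR180 to MCF2L near its end, had a median of 0.18. Against U87MG that window lay at -0.28 and -0.20 on U87MGL2 and U87MGL3, and at -0.05 and -0.12 on U87MGR2 and U87MGR3. In 1300 overlapping windows of 50 neighbouring genes, 79 had a median of 0.2 or above, 43 of them on chromosome 7 and 36 on chromosome 1. The highest, from GTF2IRD2 to STEAP2 on chromosome 7, had a median of 0.44 (0.39 on U87MGR2, 0.46 on U87MGR3), and the lowest of the 63 windows of that chromosome -0.02. Only 2 windows reached -0.2, on chromosome 14 from CLEC14A to BMP4 (-0.22) and on chromosome 6 from GPR6 to HINT3 (-0.20), and both were lower on U87MGR3 (-0.32 and -0.30) than on U87MGR2 (-0.12 and -0.05). In the chromosome 14 window the exchange factor SOS2 read 7.58 and 7 against 6.19 and 6.03, LINC01588 lay at -0.98 ± 0.24 and FRMD6 at -0.76 ± 0.17.

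**Figure D5:**
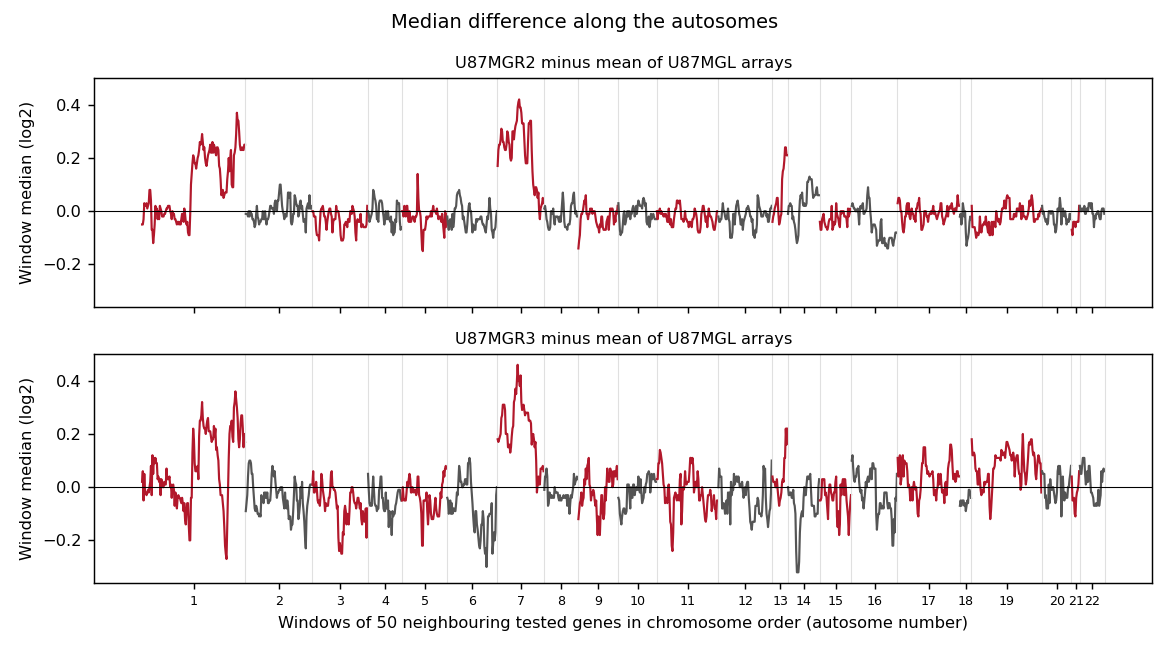
Median log2 difference from the mean of the U87MGL arrays in windows of 50 neighbouring tested genes (vertical axis), along the autosomes in order (horizontal axis), for U87MGR2 (top) and U87MGR3 (bottom); colours alternate between chromosomes. Most of chromosome 7, apart from its end, and most of the later part of chromosome 1 lie above 0 on both arrays, although a stretch of chromosome 1 dips below 0 on U87MGR3. The window with the highest median over both arrays, on chromosome 7, lies at 0.39 and 0.46.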

How the data were processed

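Total RNA of 6 cultures was labelled as biotinylated cRNA and measured on 1-colour oligonucleotide arrays. The authors deposited log2 signals of 54675 probe sets (array medians 5.29 to 5.35); the summarization and normalization methods are not given in the sources used here, and no further normalization was applied. Symbols came from the platform's probe table: 41097 probe sets carried 1 symbol, 1801 several and 11777 none, and 99.8% of the first matched the assembly GRCh38.p14 by gene number, which gave chromosomes and gene order.

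Genes with a mean at or above 4.73, the 40th percentile over all probe sets, were tested: 14513, of which 13998 autosomal. limma 3.58.1 (R 4.3.3) fitted a mean per group over the 6 arrays, with 3 residual and 4.05 prior degrees of freedom, contrast U87MGR minus U87MGL, two-sided, Benjamini-Hochberg over all 14513 genes; the fit was tested on simulated data. Differences are log2 ± SE (median SE 0.19), and the number of arrays limits the precision. Lists (46 pathway, 7 marker) and chromosomes were described by counts and medians, without a test.

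Named genes were: all called; the 12 widest uncalled on each side without overlap and at unadjusted p under 0.05; up to 3 members at each end of a list described; all HOX genes; FZD4; the 3 widest of a region; and the 5 nearest the threshold on each side. The members, lists and rules were chosen with earlier results of these data known. Genes on X and Y were tested but are not described. Alternatives covered the arrays in the fit, filter, normalization, probe set choice, variance trend, blocks and leaving out each array. Equally numbered U87MGR and U87MGL arrays did not deviate together (correlation 0.01).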

Additional observations from a re-analysis of the deposited data

How the results depend on the processing

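The count of called genes depended on the arrays and settings more than the size of the differences did. Some of the 18 alternatives gave identical counts. Fitting the 4 derivative arrays only matched leaving out either U87MG array, and the block of 2 spike-in sets matched leaving out U87MGR3. The block of 3 sets matched U87MGR2 against both U87MGL arrays. The tallies below therefore count some fits more than once. Of the 347 values that the 20 called genes took under 18 alternatives, all kept their direction and 192 stayed past the threshold; FBXL16 was still called under 15 alternatives, PXDN under 14 and THY1 under 13, but SCG2, CRACD and DUSP10 under 5 each. The 442 values of the 24 uncalled genes also kept their direction, and 18 of them passed.

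Beside 5 higher and 15 lower genes, fitting the 4 arrays of the derivatives only gave 6 and 23, no filter 6 and 26, the stricter filter (60th percentile) 3 and 6, quantile normalization 3 and 13, the mean of all probe sets 3 and 10, the most variable probe set 2 and 10, and median centring 5 and 19. With the array pattern of the spike-in controls as a block of 2 sets, 1 higher (FBXL16) and 1 lower gene (HOXB6) were called by limma. With 3 sets, which equals U87MGR2 against both U87MGL arrays, 0 and 0 were called, with 544 and 567 genes at unadjusted p under 0.05. The replicate block, with replicate numbers from the titles, gave 4 and 21; the numbers are not shown to pair the arrays.

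Leaving out 1 array at a time gave 0 to 6 higher and 1 to 23 lower genes; a lone array was assumed to vary like the other groups. Without U87MGL2, 0 higher and 1 lower gene (PXDN) were called by limma (219 and 323 at unadjusted p under 0.05), without U87MGL3 5 and 9, without U87MGR2 1 and 4, without U87MGR3 1 and 1, and without either U87MG array 6 and 23. The median of chromosome 7 stayed between 0.18 and 0.25 under all alternatives, and that of the whole of chromosome 1 between 0.04 and 0.11. The median of the hypoxia list lay between -0.75 and -0.18, and that of the unfolded protein list between -0.60 and -0.10. That of collagen crosslinking lay between -0.65 and -0.25. Of 936 list medians 81, and of 396 chromosome medians 37, moved by more than the spread between arrays. The cause of these shifts was not tested. Probe sets near the floor of 4.73 limit what can be said of dim genes such as ZNF875, ILDR2 and TESPA1.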

Other observations

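Some genes, chosen after their values were seen, stood far apart on the arrays of 1 derivative. IL1B, the inflammatory cytokine, stood at 9.67 on U87MGL2 and 12.91 on U87MGL3, and the thioredoxin inhibitor TXNIP at 6.75 and 10.10 on the same arrays. Periplakin PPL (9.30 and 6.81), the cyclin CCND2 (5.28 and 6.98) and KRTAP1-5 (5.55 and 7.42) also separated these 2 arrays. Between U87MGR2 and U87MGR3, HMGN3 stood at 6.52 and 3.38, FOSB at 6.04 and 8.66 and FOS at 7.94 and 10.50. Over all autosomal genes the SD of the difference between 2 arrays was 0.28 for the U87MGL arrays and 0.34 for the U87MGR arrays. It was 0.32 and 0.37 for U87MGR2 against the U87MGL arrays, and 0.46 and 0.49 for U87MGR3 against them.

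Further groups with no called member lay close to 0: 24 Notch pathway genes had a median difference of 0.02, with the glycosyltransferase LFNG lowest at -0.77, and 23 p53 targets a median of -0.04, with the repair gene DDB2 lowest at -0.76. Of 17 genes of MHC class I loading, 3 lay above and 1 below without overlap, both shares under the 23.5% and 23.0% of all autosomal genes. On this list both derivatives lay under U87MG, with medians of -0.54 for U87MGR and -0.51 for U87MGL. Mitotic genes differed from U87MG by more than any other list described here: their median was 1.02 for U87MGR and 0.98 for U87MGL against U87MG, whose arrays carry other spike-in control patterns than 3 of the 4 derivative arrays; the part of this in the result was not tested. The 13 class II genes lay at -0.89 and -0.86 against U87MG, while U87MGR and U87MGL differed by -0.11.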
